A study of Mus musculus with 32 samples.

Results

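The 9 genes described here set how pyruvate is used in mitochondria, and they were followed across mouse intestinal stem cells and progenitors: the pyruvate dehydrogenase kinase genes Pdk1, Pdk2, Pdk3 and Pdk4, the pyruvate dehydrogenase phosphatase genes Pdp1 and Pdp2, the pyruvate carboxylase gene Pcx, and the mitochondrial pyruvate carrier genes Mpc1 and Mpc2. They were chosen by symbol, all 9 were among the 50686 genes of the deposited tables, and all 9 passed the filter on low counts in every model. Polyadenylated RNA was sequenced from C57BL6 mice in 32 libraries, 4 in each of 8 groups. The groups were Cpt1a-deficient mice (Cpt1a fl/fl; Villin-CreER; Lgr5-GFP-IRES-CreER) on a high-fat diet, wild-type mice (Villin-CreER; Lgr5-GFP-IRES-CreER, with no floxed allele in the label) on a high-fat diet, Cpt1a-deficient mice on a high fat control diet and wild-type mice on a high fat control diet, each sorted into stem cells and progenitors. Both genotypes therefore carried both CreER drivers and the Lgr5 reporter, and Villin-CreER acts throughout the intestinal epithelium while Lgr5-GFP-IRES-CreER marks the stem cells. The age of the mice, the time of recombination and the composition and length of the diets are not given in the sources used here. Stem cells were sorted as Lgr5-eGFP high and progenitors as Lgr5-eGFP low, both EpCAM-positive, CD24 low or negative, and negative for CD31, Ter119, CD45 and the dead-cell dye 7AAD. Letters a to d name a group's libraries by column position, since the columns carry no replicate number, and nothing in the labels says whether stem cells and progenitors came from the same mice.

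Pyruvate, the end product of glycolysis, crosses the inner mitochondrial membrane through a carrier built from Mpc1 and Mpc2. In the matrix the pyruvate dehydrogenase complex turns it into acetyl-CoA, or pyruvate carboxylase, encoded by Pcx, turns it into oxaloacetate. The Pdk kinases phosphorylate and thereby inhibit the complex, and the Pdp phosphatases remove those phosphates and restore its activity. Pdk4 is known in other tissues as a gene induced by fasting and by fatty acids through the PPAR family of nuclear receptors, and Cpt1a is the enzyme that commits long-chain fatty acids to mitochondrial oxidation. Lgr5-positive stem cells at the crypt base are known to rely on mitochondrial metabolism, and low carrier activity is known to favour their expansion in the mouse intestine.

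The promoters of Pdk4 and Pcx are shown because these were the members that differed between genotypes. Each is the stretch before the outermost annotated start of the gene, 5′ to 3′ on the gene's strand, from RefSeq on GRCm38.p6, at chr6:5496310-5496528 on the minus strand for Pdk4 and at chr19:4510222-4510471 on the plus strand for Pcx. Capitals mark CCAAT, the letters of a common promoter element, in either direction.
Pdk4: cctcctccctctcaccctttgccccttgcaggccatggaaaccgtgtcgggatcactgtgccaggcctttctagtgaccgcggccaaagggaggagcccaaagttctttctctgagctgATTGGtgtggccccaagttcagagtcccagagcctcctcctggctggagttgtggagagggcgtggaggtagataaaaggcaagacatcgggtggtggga
Pcx: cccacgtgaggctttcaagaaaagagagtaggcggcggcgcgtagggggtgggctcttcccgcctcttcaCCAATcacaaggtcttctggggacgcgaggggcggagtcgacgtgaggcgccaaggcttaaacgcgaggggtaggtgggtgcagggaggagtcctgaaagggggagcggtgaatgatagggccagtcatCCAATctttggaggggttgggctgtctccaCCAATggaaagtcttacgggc
The Pdk4 stretch of 219 bases was 58.9% G or C with 6 CpG dinucleotides and held CCAAT once (1 match, on the opposite strand), and the Pcx stretch of 250 bases was 60.8% G or C with 16 CpG dinucleotides and held 3 matches. CCAAT was looked for after these sequences had been read. In windows of 300 bases around annotated starts (250 before, 50 after), 8 of the 12 promoters of the members held CCAAT on either strand, against 37.4% of 32851 mouse promoters.

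Letters of 3 kinds of nuclear receptor and forkhead element were searched on both strands in the same windows. The direct repeat bound by PPAR with its partner RXR, which is AGGTCA given 2 times with 1 base between, was in 0.0396% of all promoters. Its looser form built from AGGNCA, which includes it, was in 0.381%, TCAAGGTCA, bound by estrogen-related receptors, in 0.423%, and GTAAACA, bound by FoxO factors, in 3.65%. None of these 4 patterns was in any of the 12 windows, which belonged to 8 of the 9 members. Pdp1 had no entry in the promoter table. A window without these letters says nothing of a site elsewhere.

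The libraries held 3307711 to 7337425 estimated counts (median 5655066.5), and libraries of a group correlated at 0.969 to 0.984 in log2(CPM + 1). Cpt1a itself had 6.62 to 10.4 TPM (transcripts scaled to a fixed total per library) in the 16 Cpt1a-deficient libraries and 47.1 to 109.9 TPM in the 16 wild-type libraries, so every library followed its genotype label. Summed crypt base stem cell markers, of which 10 of 10 genes passed 1 CPM in at least 1 library of every group, ran from 13901.8 to 19144.4 CPM (counts scaled in the same way, without gene length) in stem cells and from 3019.2 to 7602.3 CPM in progenitors, and Epcam was at 1486.2 to 1977.3 TPM over all libraries. Lgr5 itself stood at 103.7 to 222.7 TPM in stem cells and 4.20 to 31.2 TPM in progenitors. Goblet cell markers summed to 261.8 to 925.0 CPM in stem cells and 10013.0 to 28351.2 CPM in progenitors. Paneth cell markers summed to 226.6 to 2710.6 CPM in stem cells and 3969.4 to 25905.2 CPM in progenitors. Enterocyte markers summed to 811.0 to 1554.4 CPM in stem cells and 1629.4 to 5052.3 CPM in progenitors. Enteroendocrine markers summed to 5.67 to 74.8 CPM and 676.7 to 1645.3 CPM, and tuft cell markers to 4.93 to 16.6 CPM and 21.2 to 61.1 CPM, in the same order. White blood cell, endothelial, red cell and stromal lists did not exceed 35.9 CPM in any library. In each group, 2 libraries had more Xist than Ddx3y and 2 the reverse. The former held 252 to 692 counts of Xist and 0 to 4 of Ddx3y, and the latter 0 to 3 of Xist and 168 to 443 of Ddx3y. Nothing in the labels says that the replicates were separate mice, so the p-values measure the spread between these samples.

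Pdk4 was the member with the largest genotype differences. The gene (ENSMUSG00000019577) lies on the minus strand at chr6:5483351-5496309 (GRCm38). In stem cells on the high-fat diet it had 52.4, 82.0, 34.2 and 65.7 TPM in Cpt1a-deficient libraries a to d, against 2.87, 7.25, 19.1 and 23.3 TPM in wild-type libraries a to d. On the control diet the stem cell values were 37.0, 62.1, 36.4 and 54.1 TPM in Cpt1a-deficient libraries and 13.1, 3.50, 10.1 and 6.75 TPM in wild-type libraries. Every Cpt1a-deficient stem cell library lay above every wild-type one.

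In progenitors on the high-fat diet Pdk4 had 45.0, 52.5, 24.1 and 48.9 TPM in Cpt1a-deficient libraries, against 2.03, 3.90, 6.34 and 11.8 TPM in wild-type libraries. Under the control diet it had 20.0, 29.2, 18.5 and 29.0 TPM in Cpt1a-deficient progenitors and 5.73, 2.74, 3.45 and 2.46 TPM in wild-type progenitors. Again no library of one genotype overlapped the other. Ordered by group mean, the high-fat and then the control-diet Cpt1a-deficient stem cells came first, next the high-fat and the control-diet Cpt1a-deficient progenitors, then the high-fat and control-diet wild-type stem cells, and last the high-fat and control-diet wild-type progenitors. Libraries of each 2 neighbouring groups in that order overlapped. In bulk samples fewer cells of a type and less RNA per cell cannot be told apart.

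The fitted differences followed these values. edgeR's quasi-likelihood test, with Benjamini-Hochberg adjustment over all genes tested, is used throughout, log2 fold changes are given with their standard errors (SE), and a gene is called at an adjusted p under 0.05. With both diets averaged, Pdk4 rose in Cpt1a-deficient stem cells by 2.43 ± 0.44 on the log2 scale, 5.40-fold (adjusted p = 0.0198). It rose in Cpt1a-deficient progenitors by 3.20 ± 0.41, 9.17-fold (adjusted p = 0.00102). Within single diets it passed in high-fat progenitors (2.92 ± 0.54, adjusted p = 0.0298) and in control-diet progenitors (3.48 ± 0.62, adjusted p = 0.0425). It did not pass in stem cells on the high-fat diet (2.31 ± 0.61, adjusted p = 0.253) or on the control diet (2.55 ± 0.63, adjusted p = 0.273), although the libraries did not overlap, while DESeq2 called it in both. On simulated counts for these comparisons DESeq2 made 14 false among 156 calls and 18 among 166, in that order. edgeR made 4 false among 137 calls and 4 among 142. The genotype effect in stem cells minus that in progenitors was -0.75 ± 0.61 and did not pass (adjusted p = 1), in a fit that does not pair stem cell with progenitor libraries.

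With both diets averaged, 0.637% of the genes tested in stem cells were called higher in Cpt1a-deficient libraries and 0.851% in progenitors, and genes whose 8 Cpt1a-deficient libraries all lay above the 8 wild-type ones were 0.129% in stem cells and 0.12% in progenitors. Pdk4 was in all of these sets. Calls in either direction were 0.83% of genes in stem cells and 1.21% in progenitors. On single diets, 0.474% of genes were called higher in Cpt1a-deficient progenitors on the high-fat diet and 0.225% on the control diet, and 0.338% and 0.218% in stem cells in that order. Genes whose 4 Cpt1a-deficient libraries all lay above the 4 wild-type ones were more common, at 1.81% in high-fat and 2.26% in control-diet stem cells and at 3.44% in high-fat and 1.81% in control-diet progenitors.

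Some of these Pdk4 calls lay near the threshold and were lost when a single library was left out. The call in stem cells averaged over diets missed the threshold without wild-type high-fat library b, without wild-type control library d or without Cpt1a-deficient control library b (adjusted p = 0.05, 0.0528 and 0.0505), with log2 fold changes of 2.32, 2.39 and 2.35. The high-fat progenitor call was lost when Cpt1a-deficient library a, b or d or wild-type library b or c was left out, at adjusted p of 0.0627 to 0.112 and log2 fold changes of 2.71 to 3.02. Without wild-type library d the high-fat progenitor difference was 3.56 and without wild-type library a it was 2.55, both still called. The control-diet progenitor call was kept without Cpt1a-deficient library c (adjusted p = 0.043) and was lost without any of the other 7 libraries, at adjusted p of 0.0735 to 0.15 and log2 fold changes of 3.21 to 3.99. The averaged progenitor call was kept without each of the 16 libraries in turn.

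**Figure D1:**
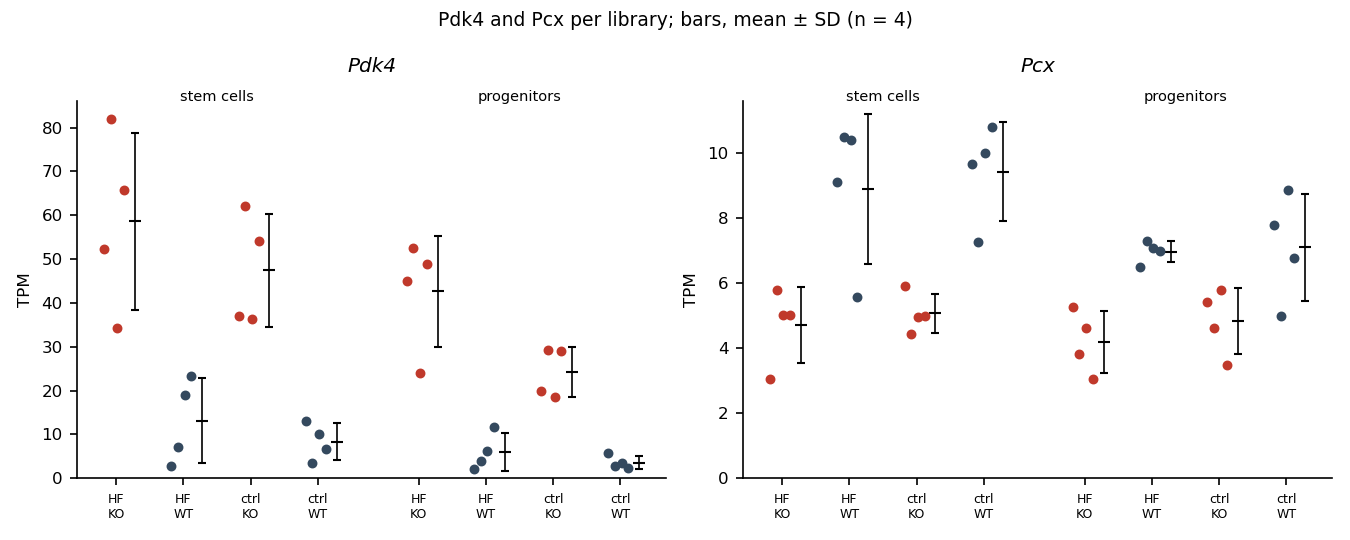
Expression of Pdk4 (left) and Pcx (right) in TPM for each of the 32 libraries, by diet (HF, high-fat; ctrl, high fat control) and genotype (KO, Cpt1a-deficient, red; WT, wild type, dark blue), with stem cells on the left of each panel and progenitors on the right; bars are mean ± SD of 4 libraries. Pdk4 ran from 18.5 to 82.0 TPM in Cpt1a-deficient libraries and from 2.03 to 23.3 TPM in wild-type libraries, and Pcx was lower in Cpt1a-deficient groups.

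For Pdk4 the high-fat wild-type stem cell libraries differed widely among themselves. Libraries a and b, which had more Xist than Ddx3y, held 2.87 and 7.25 TPM, and libraries c and d, which had more Ddx3y, held 19.1 and 23.3 TPM. Among stem cell libraries with more Xist on the high-fat diet, Pdk4 averaged 136.9 CPM in Cpt1a-deficient and 7.82 CPM in wild-type libraries, a ratio of 17.5 (2 libraries each). Among those with more Ddx3y it averaged 102.4 CPM in Cpt1a-deficient and 41.7 CPM in wild-type libraries, a ratio of 2.45.

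The same split in high-fat progenitors gave ratios of 23.1 among libraries with more Xist and 3.77 among those with more Ddx3y. Control-diet ratios were closer to each other, at 6.31 and 5.44 in stem cells and at 10.9 and 11.5 in progenitors, in that order. Since the genotypes did not overlap for Pdk4 in either population, any such split had to give higher means in Cpt1a-deficient libraries. Only the size of the ratios is described here, and whether it differed between the kinds was not tested. The averaged calls were kept under all 7 other settings, a term for the kind of library among them, with log2 fold changes of 2.40 to 2.55 in stem cells and 2.63 to 3.21 in progenitors.

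Pdk4 passed no diet test. In wild-type progenitors it averaged 6.01 ± 4.22 TPM on the high-fat diet and 3.6 ± 1.48 TPM on the control diet (SD, n = 4 each), with a log2 fold change of 1.34 ± 0.68 that did not pass. In Cpt1a-deficient progenitors it averaged 42.6 ± 12.7 TPM on the high-fat diet and 24.2 ± 5.73 TPM on the control diet, with a log2 fold change of 0.78. Averaged over genotypes the diet difference was 1.06 ± 0.41 in progenitors (adjusted p = 0.338) and 0.41 ± 0.43 in stem cells, and the libraries of the diets overlapped. The genotype by diet interaction for Pdk4 was -0.24 ± 0.86 in stem cells and -0.56 ± 0.83 in progenitors.

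Pdk4 held a larger mean share of the Pdk mRNA in each Cpt1a-deficient group than in its wild-type counterpart, given here as a description with no test. The summed TPM of the 4 kinases was 277.2 ± 43.2 in Cpt1a-deficient and 214.7 ± 13.6 in wild-type stem cells fed the high-fat diet (SD, n = 4 each). Pdk4 made up 20.8% ± 4.98 of that sum in the Cpt1a-deficient libraries and 6.0% ± 4.38 in the wild-type ones. On the control diet its share in stem cells was 18.1% ± 3.28 in Cpt1a-deficient and 3.73% ± 1.82 in wild-type libraries.

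In progenitors the Pdk4 share was 18.4% ± 4.49 in Cpt1a-deficient and 3.08% ± 2.05 in wild-type libraries on the high-fat diet, and 11.7% ± 2.66 in Cpt1a-deficient and 1.80% ± 0.705 in wild-type libraries on the control diet. Pdk2, the kinase most widely expressed across tissues, had the largest mean share in every group, between 34.4% and 50.6%. Pdk1, a kinase known as a target of HIF-1, held 25.9% to 34.3%, and Pdk3, an X-linked kinase, held 13.9% to 23.9%.

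**Figure D2:**
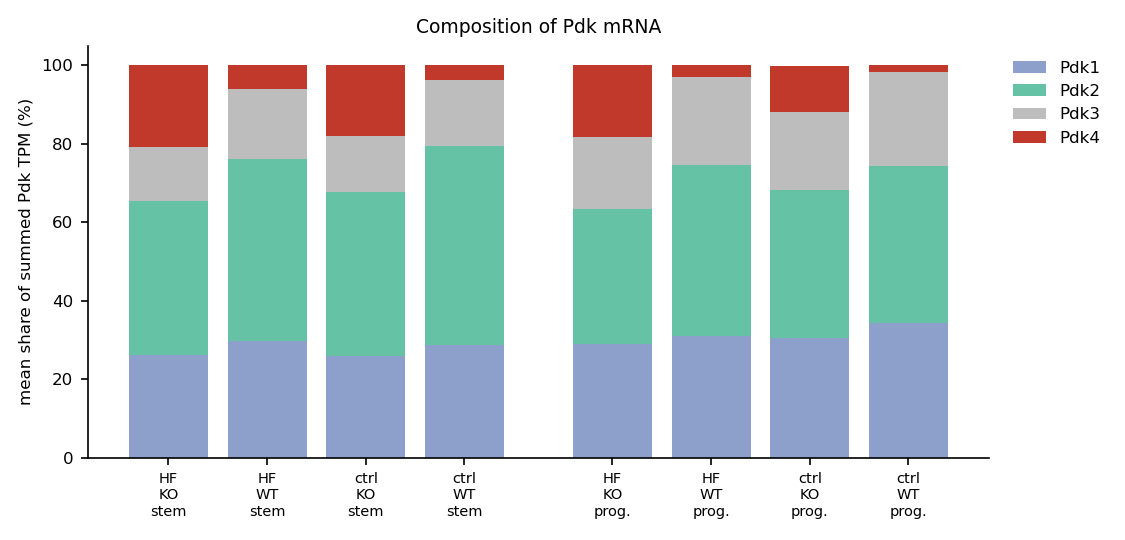
Mean share (%) of each kinase gene in the summed TPM of Pdk1, Pdk2, Pdk3 and Pdk4, for each diet, genotype and population (4 libraries per bar; HF, high-fat; ctrl, high fat control; KO, Cpt1a-deficient; WT, wild type). The Pdk4 segment (red, top) spans 11.7% to 20.8% in the Cpt1a-deficient groups and 1.80% to 6.0% in the wild-type groups.

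The other kinases did not pass any genotype or diet test. Over the 8 group means, Pdk1 ran from 59.0 to 72.1 TPM, Pdk2 from 77.9 to 112.8 TPM and Pdk3 from 36.4 to 47.3 TPM. Pdk1, Pdk2 and Pdk3 were also not called for the interaction. With diets averaged, the genotype difference of Pdk1 was 0.10 in stem cells and 0.05 in progenitors. That of Pdk3 was -0.01 in stem cells and -0.13 ± 0.06 in progenitors, and that of Pdk2 was within 0.01 of 0 in both. The smallest adjusted p among these was 0.441, for Pdk3 in progenitors.

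The phosphatase genes were expressed at lower levels than Pdk1, Pdk2 and Pdk3. Pdp1, the calcium-stimulated form, averaged 10.4 to 15.3 TPM over the groups and Pdp2 2.59 to 3.70 TPM. In Cpt1a-deficient stem cells Pdp1 had 11.8, 14.5, 16.9 and 18.1 TPM on the high-fat diet and 13.0, 12.7, 10.6 and 10.4 TPM on the control diet. The ranges overlapped, and the difference of 0.48 ± 0.15 did not pass (adjusted p = 0.557). Averaged over genotypes it was 0.30 ± 0.10 in stem cells (adjusted p = 0.216) and 0.07 in progenitors. The genotype differences, diets averaged, were -0.06 for Pdp1 and -0.17 for Pdp2 in stem cells, and -0.06 for Pdp1 and -0.03 for Pdp2 in progenitors.

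**Figure D3:**
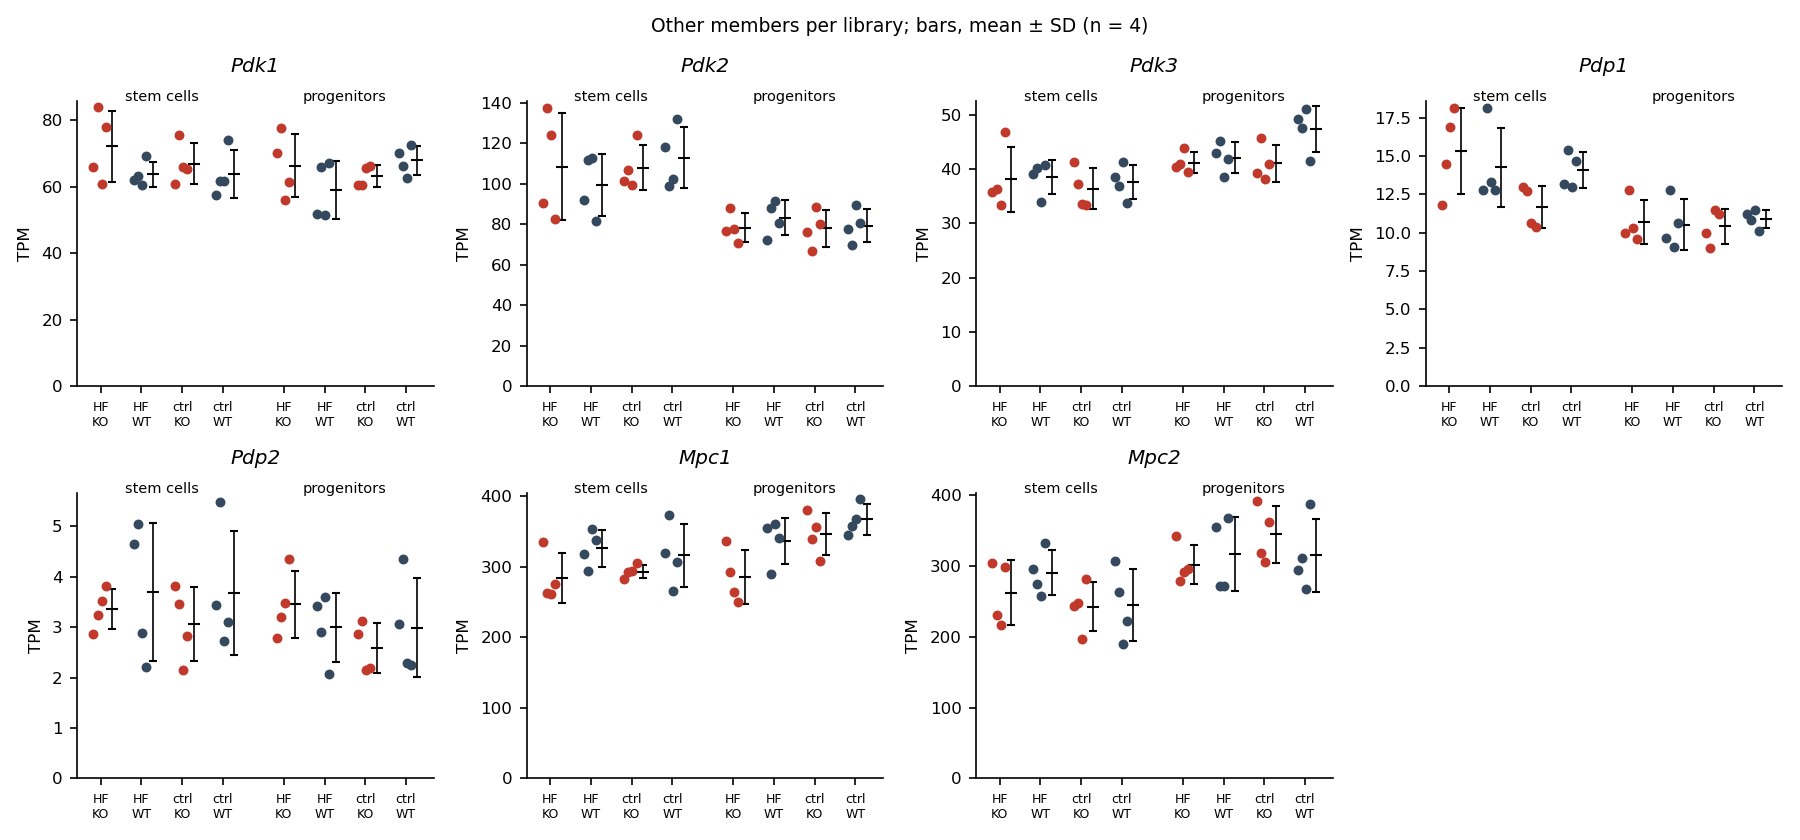
Expression in TPM of Pdk1, Pdk2, Pdk3, Pdp1, Pdp2, Mpc1 and Mpc2 in each of the 32 libraries, by diet (HF, high-fat; ctrl, high fat control) and genotype (KO, Cpt1a-deficient, red; WT, wild type, dark blue), with stem cells left and progenitors right in each panel; bars are mean ± SD of 4 libraries. With both diets pooled the genotypes overlap for each of these genes, while Pdk2 and Pdp1 sit higher in stem cells on this scale.

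Pcx was the member that fell. The gene (ENSMUSG00000024892) lies on the plus strand at chr19:4510472-4621752 (GRCm38). In stem cells on the high-fat diet it had 3.06, 5.80, 5.02 and 5.02 TPM in Cpt1a-deficient libraries, against 9.12, 10.5, 10.4 and 5.59 TPM in wild-type libraries. On the control diet the stem cell values were 5.91, 4.45, 4.96 and 4.98 TPM in Cpt1a-deficient libraries and lay between 7.27 and 10.8 TPM in wild-type libraries. On the TPM scale the high-fat groups overlapped at 1 library, while in TMM-scaled CPM neither diet's groups overlapped, as for 1.74% of genes lower on the high-fat diet and 1.66% lower on the control diet.

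In progenitors on the high-fat diet Pcx had 5.27, 3.83, 4.63 and 3.05 TPM in Cpt1a-deficient libraries, against 6.51, 7.30, 7.09 and 7.01 TPM in wild-type libraries, with no overlap, as for 3.65% of genes lower there. Under the control diet it had 5.44, 4.62, 5.79 and 3.49 TPM in Cpt1a-deficient progenitors and 7.81, 4.98, 8.86 and 6.78 TPM in wild-type progenitors. There the groups overlapped through wild-type library b, while 1.39% of genes were lower with no overlap. Ordered by group mean, all 4 wild-type groups stood above all 4 Cpt1a-deficient ones, and neighbouring groups in that order overlapped except at the step between the genotypes, from high-fat wild-type progenitors to control-diet Cpt1a-deficient stem cells.

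With both diets averaged, Pcx fell in Cpt1a-deficient stem cells by 0.88 ± 0.13 on the log2 scale, with wild-type cells 1.85-fold higher (adjusted p = 0.0011). It fell by 0.65 ± 0.13 in Cpt1a-deficient progenitors, with wild-type cells 1.57-fold higher (adjusted p = 0.0129). Genes called lower in these comparisons were 0.193% of those tested in stem cells and 0.361% in progenitors. On single diets Pcx passed in stem cells on the high-fat diet (adjusted p = 0.0363, log2 fold change -0.91 ± 0.19), where 0.105% of genes were called lower and 0.443% in either direction. It did not pass in stem cells on the control diet (-0.86 ± 0.19, adjusted p = 0.0824), in progenitors on the high-fat diet (-0.75 ± 0.18, adjusted p = 0.0739) or in progenitors on the control diet (-0.54 ± 0.18, adjusted p = 0.559). Genes called lower there were 0.0242%, 0.233% and 0.0321% of those tested in that order, and genes called in either direction 0.242%, 0.706% and 0.257%. DESeq2 called Pcx in control-diet stem cells and high-fat progenitors as well, and not in control-diet progenitors. In each genotype comparison DESeq2 made more false calls than edgeR on simulated counts.

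Both averaged calls were kept without each of the 16 libraries in turn. The high-fat stem cell call was kept without wild-type library d (adjusted p = 0.00596) and lost without any of the other 7 libraries, at adjusted p of 0.0617 to 0.148 and log2 fold changes of -0.99 to -0.79. It was also lost with limma on log2(TPM + 1) (adjusted p = 0.226) and in a model of those 2 groups alone (adjusted p = 0.176). The control-diet stem cell difference passed without wild-type library b (-0.98, adjusted p = 0.0484). The averaged progenitor call was lost with limma on log2(TPM + 1) (-0.55, adjusted p = 0.0637).

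Both within libraries with more Xist and within those with more Ddx3y, Pcx averaged lower in Cpt1a-deficient than in wild-type libraries in all 4 pairs of groups. The wild-type to Cpt1a-deficient ratio of mean CPM ran from 1.21, in control-diet progenitors with more Xist, to 2.17, in high-fat stem cells with more Xist. Diet differences of Pcx, genotypes averaged, were -0.08 in both populations. Its genotype by diet interaction was -0.06 ± 0.26 in stem cells and -0.21 ± 0.26 in progenitors, and its genotype effect in stem cells minus that in progenitors was -0.22 ± 0.19 (adjusted p = 1).

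Pcx lies on the chromosome that carries the floxed Cpt1a locus, 1.12 Mb beyond the end of Cpt1a, with 29 tested genes between them. The wild-type label names no floxed allele, so the genotypes may also differ in sequence near this locus. For Pcx, loss of Cpt1a and sequence carried with the floxed allele cannot be told apart in this design, and neither was tested. Of 96 genes whose start lies within 2 Mb of that of Cpt1a, Cpt1a left out, 53 were tested in stem cells and 54 in progenitors. Pcx was the 1 gene that edgeR called among them in both averaged comparisons and in high-fat stem cells. Of all genes tested, edgeR called 0.83% and 1.21% in the averaged stem cell and progenitor comparisons and 0.443% in high-fat stem cells. The median log2 fold change of the neighbours was -0.01 in stem cells and -0.02 in progenitors, diets averaged, while the median of all genes was within 0.01 of 0 in both. On the high-fat diet 31 of the 53 were negative in stem cells (median -0.05) and 37 of the 54 in progenitors (median -0.06). In control-diet progenitors the lowest neighbour was Aldh3b1, at -0.606 and not called. Lrfn4, a gene on the opposite strand that overlaps Pcx, averaged 5.47 TPM and differed by -0.17 ± 0.16 in stem cells and -0.22 ± 0.15 in progenitors, without passing. The overlap is one of whole gene spans, and whether exons of Pcx and Lrfn4 share bases was not looked at. The strand setting of the counting is not given, and whether reads of one gene were counted for the other was not tested.

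**Figure D4:**
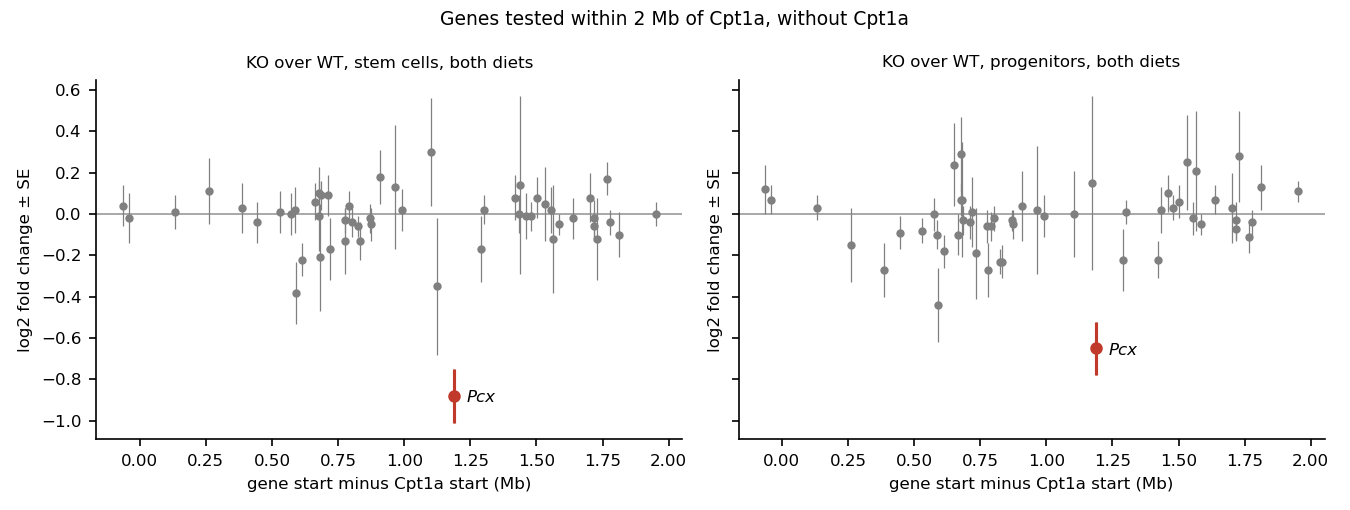
Log2 fold change (Cpt1a-deficient over wild type, both diets averaged) ± SE of each tested gene against the distance of its start from that of Cpt1a in Mb, in stem cells (left) and progenitors (right); Cpt1a itself is left out. Pcx (red) is at -0.88 in stem cells and -0.65 in progenitors, below each of the other genes drawn.

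The carrier genes had the highest levels of the 9. Mpc1 averaged 283.9 to 367.0 TPM and Mpc2 242.3 to 344.5 TPM over the groups. Mpc1 differed by genotype by -0.14 in stem cells and -0.19 ± 0.08 in progenitors (adjusted p = 0.329), diets averaged, and Mpc2 by -0.04 in stem cells and -0.01 in progenitors. On the high-fat diet Mpc1 averaged 285.7 ± 38.5 TPM in Cpt1a-deficient and 336.5 ± 32.0 TPM in wild-type progenitors (SD, n = 4 each), a log2 fold change of -0.27 ± 0.11 that did not pass (adjusted p = 0.357). In Cpt1a-deficient progenitors Mpc1 averaged 285.7 ± 38.5 TPM on the high-fat diet and 346.4 ± 30.4 TPM on the control diet, a log2 fold change of -0.23 ± 0.11 that did not pass either (adjusted p = 0.489).

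No member passed any diet test. edgeR called 0 of 9 in each of the 6 diet comparisons, as did DESeq2 and limma, against 0.959% of all genes tested in stem cells and 0.891% in progenitors with genotypes averaged. Single-genotype diet comparisons called 0.25% of genes in wild-type stem cells, 0.0645% in Cpt1a-deficient stem cells, 0.0883% in wild-type progenitors and 0.313% in Cpt1a-deficient progenitors. At an unadjusted p under 0.05, the diet tests held Pdp1 in Cpt1a-deficient stem cells and in the stem cell average, Mpc1 in Cpt1a-deficient progenitors and Pdk4 in the progenitor average. Of all genes tested, 585 and 1478 of 12409 stood there in those stem cell comparisons, in that order. In those progenitor comparisons it was 1217 and 1402 of 12460. For the interaction edgeR called 0 of 9 members and 0 genes of all in either population, with 0 members at an unadjusted p under 0.05 and 444 genes in stem cells and 561 in progenitors. DESeq2 and limma on log2(TPM + 1) also called 0 genes, and limma without a low-value filter called 1 in progenitors. In stem cells, summed goblet markers averaged 756.1 CPM in Cpt1a-deficient and 855.9 CPM in wild-type libraries on the high-fat diet, and 497.6 CPM in Cpt1a-deficient and 449.5 CPM in wild-type libraries on the control diet. Paneth markers averaged 1680.1 CPM in Cpt1a-deficient and 2105.0 CPM in wild-type stem cells fed the high-fat diet, and 752.8 CPM in Cpt1a-deficient and 1141.8 CPM in wild-type stem cells on the control diet. In progenitors, goblet markers averaged 17118.6 CPM in Cpt1a-deficient and 21052.3 CPM in wild-type libraries on the high-fat diet, and 14418.1 CPM in Cpt1a-deficient and 17850.8 CPM in wild-type libraries on the control diet. Paneth markers there averaged 19052.6 CPM in Cpt1a-deficient and 18445.2 CPM in wild-type libraries under high-fat feeding, and 9740.9 CPM in Cpt1a-deficient and 9501.8 CPM in wild-type libraries on the control diet. The mean sums were higher on the high-fat diet in each genotype and population, the genotype ranges overlapped within each diet, and the part of these markers in the members' values was not tested.

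**Figure D5:**
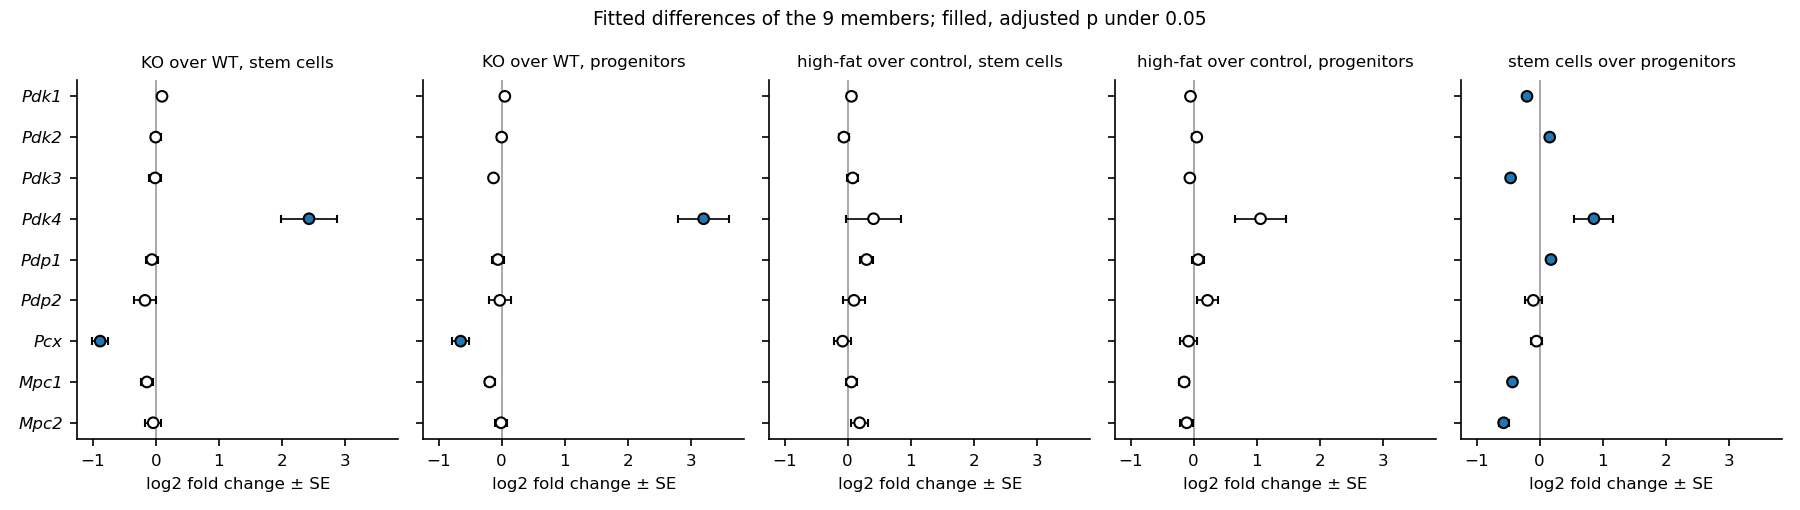
Log2 fold change ± SE of the 9 members in 5 comparisons: Cpt1a-deficient (KO) over wild type (WT) in stem cells and in progenitors with diets averaged, high-fat over control diet in stem cells and in progenitors with genotypes averaged, and stem cells over progenitors averaged over 4 conditions; filled points have an adjusted p under 0.05. Pdk4 (2.43 and 3.20) and Pcx (-0.88 and -0.65) are filled for genotype, no member is filled for diet, and 7 members are filled between the populations.

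Between the populations, averaged over the 4 conditions, 3 members were higher and 4 lower in stem cells, where 32.5% of all genes tested were called higher and 31.0% lower, 63.5% in all. Pdk4 was higher by 0.86 ± 0.31 (adjusted p = 0.0167), Pdp1 by 0.18 ± 0.07 (adjusted p = 0.015) and Pdk2 by 0.16 ± 0.05 (adjusted p = 0.0101). Mpc2 was lower in stem cells by a log2 fold change of -0.57 ± 0.08, Pdk3 by -0.46 ± 0.06, Mpc1 by -0.43 ± 0.06 and Pdk1 by -0.20 ± 0.05, with adjusted p of 9.76e-07, 1.73e-08, 3.06e-07 and 0.000353. Pdp2 (-0.10) and Pcx (-0.05) did not pass. For each of the 7 called members the libraries of the populations overlapped in CPM. The fit behind these values does not pair stem cell with progenitor libraries.

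These population differences depended on the scale. On log2(TPM + 1) the median of all genes moved to 0.27, against 0.02 in CPM, and limma called 7445 genes higher and 1857 lower in stem cells, where edgeR called 4259 higher and 4056 lower. On that scale Pdk1 was at 0.06 and not called, Pcx at 0.22 and called (adjusted p = 0.0471), and Mpc1 and Mpc2 at -0.13 and -0.30. Relative to the median of all genes on each scale, Pdk1 was at -0.22 on both, Pcx at -0.06 in log2(TPM + 1) and -0.07 in CPM, Mpc1 at -0.40 and -0.45, Mpc2 at -0.58 and -0.60, and Pdk4 at 0.53 and 0.83. The populations also differed in their goblet, Paneth, enterocyte, enteroendocrine and tuft cell marker sums, as given above. The part of these in the members' differences was not tested.

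Of the 5 subunit genes of the complex that the kinases and phosphatases act on (Pdha1, Pdhb, Dlat, Dld and Pdhx), edgeR called 0 in each genotype, diet and interaction comparison, as did DESeq2 and limma. At an unadjusted p under 0.05 there were 0 in each genotype comparison and at most 1 in each diet comparison. Of all genes tested, 587 to 1393 stood there in the genotype comparisons and 585 to 1478 in the diet comparisons. Pdha1, the phosphorylated subunit, named after its values were seen, averaged 317.4 ± 25.4 TPM in Cpt1a-deficient and 312.6 ± 17.6 TPM in wild-type stem cells fed the high-fat diet (SD, n = 4 each). In stem cells against progenitors, 4 of 5 were lower: Pdhb by -0.43 ± 0.04, Dld by -0.42 ± 0.05, Dlat by -0.31 ± 0.05 and Pdhx by -0.31 ± 0.04 on the log2 scale. The median of the list there was -0.31, against 0.02 over all genes, of which 31.0% were called lower. These directions depend on the scale: on log2(TPM + 1) limma called 2 of the 5 lower and 1 higher. In TPM the group means of Dlat were 108.1 to 117.8 in stem cells and 109.5 to 113.7 in progenitors, and those of Pdha1 were 312.6 to 330.1 in stem cells and 255.9 to 275.2 in progenitors. Of 6 genes for cofactors of the complex and for a phosphatase regulator, 0 were called by genotype or diet with edgeR, DESeq2 or limma, with at most 2 at an unadjusted p under 0.05 in a comparison. Against progenitors edgeR called 2 of the 6 higher and 2 lower in stem cells, and limma on log2(TPM + 1) called 4 higher and none lower. Of all genes tested between the populations, edgeR called 32.5% higher and 31.0% lower, and limma 7445 higher and 1857 lower of 12956.

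Of 16 genes for other enzymes and carriers of pyruvate, lactate and malate, 15 were tested, and Me1, the cytosolic malic enzyme that makes pyruvate from malate, was the one that edgeR called for genotype or diet. On the high-fat diet it averaged 14.7 ± 2.26 TPM in Cpt1a-deficient and 3.15 ± 1.28 TPM in wild-type stem cells, and 58.6 ± 13.4 TPM in Cpt1a-deficient and 11.8 ± 4.99 TPM in wild-type progenitors (SD, n = 4 each). Its log2 fold change was 2.17 ± 0.30 in stem cells (adjusted p = 0.00134) and 2.25 ± 0.33 in progenitors (adjusted p = 0.00368). edgeR called 0.443% of all genes in the former comparison and 0.706% in the latter. On the control diet Me1 averaged 3.16 ± 2.23 TPM in Cpt1a-deficient and 2.34 ± 1.82 TPM in wild-type stem cells. In control-diet progenitors it averaged 8.63 ± 4.48 TPM in Cpt1a-deficient and 2.89 ± 1.32 TPM in wild-type libraries. Me1 also passed the diet test in Cpt1a-deficient stem cells (2.35 ± 0.31, adjusted p = 0.00592) and Cpt1a-deficient progenitors (2.70 ± 0.33, adjusted p = 0.00338). There edgeR called 0.0645% and 0.313% of all genes, in that order. Me1 was also called in the averaged genotype and averaged diet comparisons of both populations. Of the list, edgeR called 0 for genotype on the control diet, for diet in wild-type cells and for the interaction. Between the populations edgeR called 4 of the 15 higher and 10 lower in stem cells, where it called 32.5% of all genes higher and 31.0% lower. On log2(TPM + 1) limma called 5 of the list higher and 8 lower, and 7445 genes higher and 1857 lower of 12956. Gpt2 and Pck1, a mitochondrial alanine aminotransferase and the cytosolic PEP carboxykinase, were at -2.67 ± 0.13 and -2.91 ± 0.17, the lactate dehydrogenase gene Ldha was at -1.32 ± 0.08, and Pck2, the mitochondrial PEP carboxykinase, was at 0.75 ± 0.05.

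Of 9 transcription factors known to act on Pdk genes, Hif1a, which encodes the oxygen-regulated subunit of HIF-1, was the one that edgeR called by genotype. In Cpt1a-deficient progenitors it rose by 0.40 ± 0.08 with diets averaged (adjusted p = 0.0174) and by 0.57 ± 0.12 under high-fat feeding (adjusted p = 0.0273), and limma on log2(TPM + 1) called neither (adjusted p = 0.0899 and 0.0919). It averaged 50.6 ± 5.61 TPM in Cpt1a-deficient and 32.8 ± 3.79 TPM in wild-type progenitors on the high-fat diet (SD, n = 4 each). Of all genes tested in progenitors, edgeR called 1.21% by genotype with diets averaged and 0.706% on the high-fat diet. At an unadjusted p under 0.05 stood at most 4 of the 9 in a genotype comparison, and 587 to 1393 of all genes. edgeR called 0 of the 9 for diet, with at most 3 at an unadjusted p under 0.05 in a comparison. Of all genes tested, 585 to 1478 stood there in the diet comparisons. With genotypes averaged, DESeq2 called 1 lower in stem cells and 1 higher and 1 lower in progenitors for diet, and limma on log2(TPM + 1) called 0. Against progenitors, edgeR called 4 of the 9 higher and 4 lower in stem cells, beside 32.5% of all genes higher and 31.0% lower. On log2(TPM + 1) limma called 4 of the 9 higher and 2 lower, beside 7445 genes higher and 1857 lower of 12956.

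Another 13 genes known as PPAR targets in fat oxidation were set beside Pdk4. In Cpt1a-deficient against wild-type libraries with diets averaged, edgeR and limma on log2(TPM + 1) called 10 higher in stem cells and 12 in progenitors. DESeq2 called 11 and 12, and no tool called a gene of this list lower. Of all genes tested, edgeR called 0.637% higher in stem cells and 0.851% in progenitors. DESeq2 called 109 of 12409 and 146 of 12460 higher, and limma on log2(TPM + 1) 58 of 13087 and 72 of 12713. By edgeR the list's median log2 fold change was 0.99 and 0.91, while the median over all genes was within 0.01 of 0. Hadha, a subunit of the trifunctional protein of fatty acid oxidation, rose by 0.88 ± 0.06 in Cpt1a-deficient stem cells and 0.79 ± 0.07 in Cpt1a-deficient progenitors (adjusted p = 1.78e-07 and 1.25e-06). With genotypes averaged, 8 of the 13 were higher on the high-fat diet in stem cells and 9 in progenitors, where 0.621% and 0.642% of all genes tested were called higher. This list was chosen with earlier results of these data known.

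By Pearson correlation of log2 CPM over the 32 libraries, after each population's mean was taken out, genes among the most like Pdk4 of 9615 were Angptl4 (0.98), which encodes an inhibitor of lipoprotein lipase, and Acot1 (0.95), a cytosolic acyl-CoA thioesterase. Angptl4 averaged 160.3 ± 33.7 TPM in Cpt1a-deficient and 42.1 ± 28.7 TPM in wild-type stem cells fed the high-fat diet (SD, n = 4 each). Those nearest to Pcx were Cpt1a (0.80), the pseudogene BC064078 (0.78) and Rspry1 (0.75). Those nearest to Mpc2 were Psma7 (0.95), Atp5o (0.93) and Ndufa8 (0.93), a proteasome, an ATP synthase and a respiratory complex I subunit. For Mpc1 the nearest gene was Tm2d2 (0.84), for Pdk3 Rpn1 (0.78), and for Pdk1, Pdk2, Pdp1 and Pdp2 the highest value was between 0.59 and 0.70. These libraries share their genotype and diet groups, so the coefficients describe likeness only.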

How the data were processed

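Polyadenylated RNA of 32 sorted libraries was analysed from 2 tables of 50686 genes. One holds estimated counts per gene, deposited by the authors as whole numbers, and the other log2(TPM + 1), also as deposited. The build mm10 and the tools RSEM 1.3.0, STAR 2.5.3a and SAMtools 1.3 are named, per the submitters' processing notes, without their order. The annotation and the strand setting are not given in the sources used here. TPM values here are the deposited log2 values turned back. Column names give the group but no replicate number. Counts in unnamed genes made up 0.0677%.

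Counts were fitted with edgeR 4.0.16 in R 4.3.3 (TMM scaling, filterByExpr with a minimum count of 10, robust quasi-likelihood test) on 16 stem cell libraries (12409 genes), 16 progenitor libraries (12460 genes) and all 32 (13088 genes, used between populations). P-values were adjusted by Benjamini-Hochberg over all genes tested, with a threshold of 0.05. The SE is the log2 fold change divided by the square root of F. DESeq2 1.42.0 and limma 3.58.1, on log2(TPM + 1) with a mean of at least 1, were alternatives, as were other scaling, no filter, a term for Xist against Ddx3y, models of 2 groups and leaving out each library. On simulated counts with known changes, edgeR recovered 91% of genes changed 2-fold in the stem cell genotype comparison averaged over diets, with 3 false among 174 calls, and 81% in progenitors, with 9 false among 168. DESeq2 made 26 false among 203 calls in the former and 25 among 187 in the latter. In the single-diet genotype comparisons it recovered 69% to 76% of genes changed 2-fold and 37% to 42% of those changed 1.5-fold.

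All 9 members were described in each comparison. From linked gene lists, at most 4 called genes a comparison were named, by smallest adjusted p, and the 3 genes most like each member by correlation, among genes with a mean log2 CPM of at least 3. The members and lists were chosen with earlier results of these data known. Promoter sequences were RefSeq's on GRCm38.p6. No proteins were used here. Some genes that this rule names are not reported here.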

Additional observations from a re-analysis of the deposited data

Results flagged for a closer look

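Pdp1 had 18.1 TPM in library b of the high-fat wild-type stem cells, where the other 3 libraries had 12.8, 13.3 and 12.8 TPM. The gap from that library to the nearest other was 0.906 of the range of the group, above Dixon's limit for 4 samples. It was the 1 such group among 72 groups of 4 tested over the members, and chance gives about 1 in 20.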

How the results depend on the processing

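No paired analysis was possible because the columns carry no replicate numbers. Of 1143 values of the members under settings other than leaving out a library, 1121 kept their direction and their side of the threshold or passed in neither case (71 of these, called under neither setting, changed sign), 11 lost a call, 7 gained one and 4 turned sign with a call involved. The number of members called by genotype moved as follows, and the causes were not tested. On the high-fat diet in stem cells it was 1 (Pcx), with 2 by DESeq2 (Pdk4 and Pcx) and 0 by limma under each of its 3 settings and in the model of 2 groups. On the control diet in stem cells it was 0, with 1 without the low-count filter, 2 by DESeq2 (Pdk4 and Pcx) and 1 in the model of 2 groups. In high-fat progenitors it was 1, with 2 without the filter, 2 by DESeq2 (Pdk4 and Pcx) and 0 in the model of 2 groups. In control-diet progenitors it was 1, with 0 without the filter and 0 with the term for Xist against Ddx3y. In progenitors averaged over diets it was 2, with 1 by limma under each of its 3 settings. Leaving out a library gave 0 to 1 in each single-diet comparison, 1 to 2 in stem cells averaged over diets, 2 throughout in averaged progenitors, 7 throughout between populations and 0 throughout for diet and the interaction. Between stem cells and progenitors Pdk1 turned to 0.06 by limma under its 3 settings (not called) and Pcx to 0.22 on log2(TPM + 1). Genes called over the whole table by genotype averaged over diets numbered 103 in stem cells and 151 in progenitors by edgeR, 166 and 273 by DESeq2, and 62 and 91 by limma without a low-value filter. By diet averaged over genotypes they were 119 and 111 by edgeR, 250 and 240 by DESeq2, and 51 and 53 by limma without that filter. DESeq2 called 106 genes against 55 by edgeR for genotype in high-fat stem cells, 60 against 30 in control-diet stem cells, 190 against 88 in high-fat progenitors and 83 against 32 in control-diet progenitors. For diet it called 43 against 8 in Cpt1a-deficient and 180 against 31 in wild-type stem cells, and 118 against 39 in Cpt1a-deficient and 47 against 11 in wild-type progenitors. Over the settings other than DESeq2 and than leaving out a library, the genotype counts ran from 25 to 68 in high-fat stem cells, 23 to 36 in control-diet stem cells, 40 to 110 in high-fat progenitors and 18 to 48 in control-diet progenitors. The diet counts ran from 3 to 22 in Cpt1a-deficient and 2 to 58 in wild-type stem cells, and from 15 to 67 in Cpt1a-deficient and 2 to 18 in wild-type progenitors. For Pdk4 in control-diet progenitors the log2 fold change was 3.48 by edgeR and 2.48 by limma on log2(TPM + 1); the cause was not tested.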
